A study of Mus musculus with 5 samples.

Results

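The regions described here are the peaks of the HSC KO library on chromosomes 1 to 19 that overlapped, by at least 1 bp, no peak of any of the other 4 libraries and no annotated protein-coding gene. They numbered 2083 of the 4712 peaks of that library (44.2%, exact 95% binomial interval 42.8 to 45.6) and of the 7045 peaks in all 5 lists. A crowded window at the start of the assembled sequence of chromosome 9 was left out with its 71 KO peaks, which left 3765 KO peaks to choose from. Of these, 3179 overlapped no peak of another list (84.4%) and are called KO-only. Of the KO-only peaks 2083 lay outside genes (65.5%, 63.8 to 67.2) and 1096 inside. Between the first and last gene of each chromosome, 59.5% of the sequence lay outside genes. The regions were chosen by the presence and absence of called peaks and by gene positions, so their absence from the other lists is a description and was not tested.

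BCLAF1 was profiled by CUT&RUN in blood stem and progenitor cells of the mouse, with 50000 sorted cells and the same anti-BCLAF1 antibody in every library. The HSC libraries were 2 labelled WT and 1 labelled KO, from haematopoietic stem cells of E17.5 fetal livers pooled from 24 to 26 embryos. The sources used here do not say how the deletion was made, in which cells it acts or which strain was used. The LSK libraries, both WT, came from Lineage-negative, Sca1-positive, Kit-positive cells, 1 native and 1 fixed in 0.1% formaldehyde for 2 min. Their tissue label names E17.5 fetal liver and their protocol adult bone marrow pooled from 2 to 3 mice. Peak lists hold no expression, so neither the cell types nor the loss of BCLAF1 could be checked. There is 1 KO library, so no difference between genotypes was tested.

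BCLAF1 is a protein of the nucleus with reported roles in gene transcription and in the splicing of RNA. In CUT&RUN the antibody tethers a nuclease that cuts the DNA nearby, and the released fragments are sequenced. A library from cells that lack the target shows where fragments are recovered without it; in general, accessible chromatin and repeated sequence are known to give such signal. DNA between genes holds enhancers, non-coding RNA genes, satellite repeats near centromeres and tandem gene families.

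Peak lists carry positions and no bases, and the bases under the peaks were not used here. The sequences that could be shown are those next to the peaks. Of the gene starts listed by RefSeq, 3 had a region with an enrichment of at least 10 whose summit lay up to 500 bp upstream. These were Tex30, Zcchc9 and Tmem59l. Enrichment is the authors' value for each peak, reads over local background with a pseudocount of 1 on each. The 250 bases before each start follow, from RefSeq on GRCm38.p6, the assembly of mm10, all on the minus strand, 5′ to 3′, with CG pairs in capitals.
Tex30, chr1:44102442-44102691: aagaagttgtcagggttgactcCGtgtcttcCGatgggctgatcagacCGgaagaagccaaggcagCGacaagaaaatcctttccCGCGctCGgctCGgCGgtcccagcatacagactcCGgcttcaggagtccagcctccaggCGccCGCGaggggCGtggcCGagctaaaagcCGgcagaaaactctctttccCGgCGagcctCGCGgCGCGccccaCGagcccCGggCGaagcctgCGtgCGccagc
Zcchc9, chr13:91807697-91807946: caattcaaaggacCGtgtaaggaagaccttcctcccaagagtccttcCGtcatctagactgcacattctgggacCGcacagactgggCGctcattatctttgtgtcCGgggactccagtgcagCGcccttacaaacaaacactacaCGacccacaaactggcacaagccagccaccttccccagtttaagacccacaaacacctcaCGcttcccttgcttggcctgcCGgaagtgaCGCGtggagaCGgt
Tmem59l, chr8:70487349-70487598: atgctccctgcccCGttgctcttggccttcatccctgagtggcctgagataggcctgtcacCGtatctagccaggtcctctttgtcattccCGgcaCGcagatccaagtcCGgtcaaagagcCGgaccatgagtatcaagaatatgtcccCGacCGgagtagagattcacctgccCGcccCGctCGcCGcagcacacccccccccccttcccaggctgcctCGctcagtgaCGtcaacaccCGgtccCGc

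The stretch before Tex30 held 27 CG pairs, that before Tmem59l 16 and that before Zcchc9 12. None of the 3 peaks reached into it. The Tex30 peak lay 123 bp beyond its upstream end, the Zcchc9 peak 137 bp and the Tmem59l peak 69 bp. Their enrichments were 19.4, 15.8 and 11.2, from 41, 33 and 23 reads.

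No region overlapped a listed start. Peaks that reached into a protein-coding gene were left out by the rule, so part of this absence was set in advance. RefSeq's start windows, from 250 bases before to 50 after a start, numbered 31396 on 18 of the 19 chromosomes. They covered 0.342% of the sequence outside genes, a share of bases that takes no account of peak width. Of the 2016 regions on those chromosomes, 0 overlapped a window. Strand, taken from these windows, was listed for 17491 of 21896 protein-coding genes, and a start without a window could not be scored. Regions 140 bp from Galm and 245 bp from Jsrp1 lay by genes with no strand listed. A count of 0 allows a share of up to 0.149%, taken as 3 counts of 2016 and not as a two-sided interval, for counting error only. Among all 3765 KO peaks, counted on all 19 chromosomes though windows were listed on 18, 5 did overlap a window. Such overlap was thus rare in the whole KO list, but the share of all sequence in windows is not given here. The windows nearest to a region, 185 within 5 kb of a summit, had a median of 5 CG pairs against 7 in all windows. At least 10 CG pairs stood in 30.8% of them (exact 95% interval 24.2 to 38.0) and in 44.0% of all windows. The set of all windows was not limited to starts near sequence outside genes, where the rule places every region. Kinds of gene were not matched between the sets either, and the difference was not tested.

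Most of the regions were weak. Their enrichments ran from 2.07 to 37.7 with a median of 7.33, and the interquartile range was 6.06 to 8.85. An enrichment of at least 10 was reached by 367 (17.6%) and of at least 20 by 34 (1.63%). They were narrow, with a median width of 82 bp and a range of 65 to 434 bp. The reads at each summit, recovered from the enrichment and the p-value, had a median of 15 and ranged from 9 to 206. In 1112 regions (53.4%) a peak rested on 9 to 15 reads, and 9 was the fewest of any KO peak.

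The HSC KO library had both the highest background and the most peaks; among the other 4 the order of backgrounds was not that of peak numbers. The most common background was 1.15 reads per position in HSC KO. It was 0.339 in HSC WT 1, 0.117 in HSC WT 2, 0.327 in the native LSK library and 0.022 in the fixed one. Scaled by the ratio of these backgrounds, the median region of 15 reads would hold 4.43 reads in HSC WT 1, whose weakest called peak held 6. At least 6 reads would be reached by 451 regions (21.7%, exact 95% interval 19.9 to 23.5). In native LSK cells 388 regions would reach that library's minimum of 6 reads (18.6%). In HSC WT 2 only 72 would reach its minimum of 4 (3.46%), and in fixed LSK cells 1 its minimum of 3. The scaling assumes equal enrichment over background in each library. Its part in which peaks are KO-only was not otherwise tested.

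**Figure D1:**
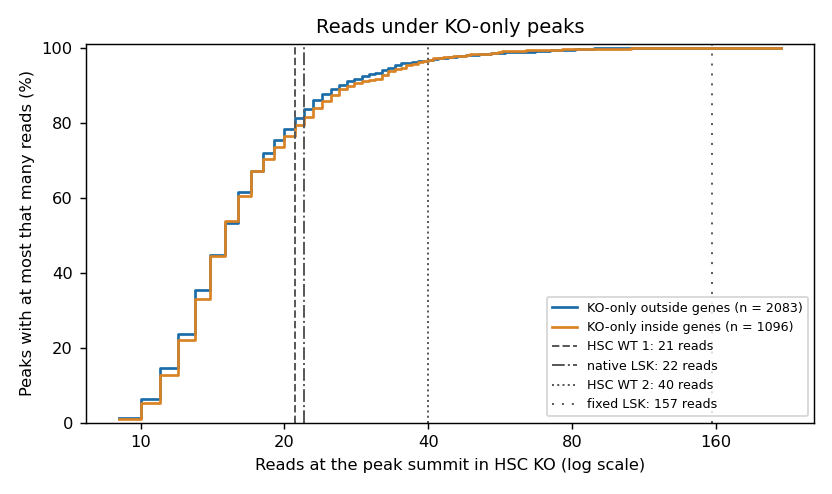
Cumulative share of KO-only peaks (y axis, percent) by reads at the summit in the HSC KO library (x axis, log scale), outside genes (blue, 2083 peaks) and inside genes (orange, 1096 peaks). Vertical lines mark the KO reads that scale to the weakest called peak of each other library, at 21 for HSC WT 1, 22 for native LSK, 40 for HSC WT 2 and 157 for fixed LSK; most of both curves lies to the left of all 4 lines.

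The regions did not differ beyond the test's threshold from KO-only peaks inside genes in 3 measures. An enrichment of at least 10 was found in 17.6% of the regions outside genes (exact 95% interval 16.0 to 19.3) and 19.7% of those inside (17.4 to 22.2). Peaks within 10 kb of another KO peak made up 11.3% (9.95 to 12.7) outside and 10.9% (9.08 to 12.9) inside. Peaks at least 150 bp wide made up 5.04% and 5.29%. None of the 3 differences passed (Fisher's exact test, two-sided, adjusted p = 0.445, 0.800 and 0.800 in that order), which does not show that the groups are alike. Median enrichment was 7.33 outside and 7.45 inside, and median width 82 bp in both. The share outside genes, 65.5% of KO-only peaks, was 67.7% (63.8 to 71.5) among the 586 KO peaks that did overlap a peak of another list. These tests compare peaks of 1 library, and neighbouring peaks are not independent.

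The 15 strongest regions lay on 8 chromosomes, 10 of them over 10 kb from any gene. The first was chr13:71244982-71245106, 403 kb from Adamts16, which encodes a secreted metalloprotease, with an enrichment of 37.7 from 80 reads. The second, chr6:135268012-135268124, lay 13676 bp on the 5′ side of Gsg1, a germ cell gene, with 36.4 from 84 reads. The third, chr1:181559266-181559353, lay 17240 bp on the 5′ side of Dnah14, a dynein heavy chain gene, with 36.3 from 87 reads. At the background of HSC WT 1 these would correspond to 23.6, 24.8 and 25.7 reads; no peak was called there.

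The next 3 lay near a skin gene and 2 genes of signalling and membrane proteins. Next to Sprr1a, a cornified envelope gene, a region 2048 bp beyond the 3′ end had an enrichment of 33.1 from 71 reads (chr3:92481834-92481906). The region at chr1:145100356-145100533 had 33.0, 325 kb from Rgs18, a regulator of G-protein signalling in platelets. The region at chr6:127957757-127957889 had 31.4, 3507 bp beyond the 3′ end of Tspan9, a tetraspanin. These were the 6 regions above an enrichment of 30.

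The other 9 of the 15 strongest had enrichments between 24.2 and 29.5. Their nearest genes were Ccdc115, Wls, Kcnh5, Sox11, Nrg3, Prn, Emp1, Pcdh9 and Adat2. The Wls region, chr3:159831890-159831984, lay 7666 bp on the 5′ side of the gene, a carrier of Wnt proteins. The Nrg3 region lay 509 kb from its gene and inside the pseudogene Gm5204. Of the 15, 5 lay within 10 kb of a gene. All 15 scaled to at least the 6 reads of the weakest HSC WT 1 peak, which follows from their choice by enrichment. At the background of fixed LSK cells only the Kcnh5 region, at 3.95, scaled to that library's minimum of 3. In 14 of the 15 no other KO peak lay within 10 kb.

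The exception was chr12:74803906-74803974, 93243 bp from Kcnh5, a potassium channel gene. It held the most reads of all, 206, over a local background of 6.65. Another KO peak lay 169 bp away, and a peak of another list lay 174 bp away, so this region borders a site called in another library. Few regions did: 27 of the 2083 lay within 500 bp of a peak of another list (1.30%) and 64 within 10 kb (3.07%). At the edge of the rule, the region nearest to a peak of another list was 90 bp from it, with an enrichment of 6.27. The KO peak outside genes with the smallest overlap shared 17 bp and had 7.45.

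Distances to genes ranged from 8 bp to 2183554 bp. The median was 70260 bp to the nearest protein-coding gene, and the interquartile range 15565 to 246169 bp. Within 1 kb lay 65 regions (3.12%), within 5 kb 250 (12%) and within 10 kb 402 (19.3%). More than 1 Mb away lay 81 (3.89%). The nearest were 8 bp from Mark4, a microtubule-regulating kinase gene, and 9 bp from the olfactory receptor gene Olfr316. No KO-only peak crossed a gene boundary: the 1096 inside genes lay wholly inside.

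Set against the sequence available, the regions lay somewhat nearer to genes. Between the first and last gene of each chromosome 59.5% of the sequence, 1446 Mb, lay outside genes, and it held 2056 of the regions, or 1.42 per Mb. Of these, 12% lay within 5 kb of a gene (exact 95% interval 10.6 to 13.5), as did 9.65% of that sequence. Within 50 kb the shares were 44.5% (42.3 to 46.6) and 40.3%. Gaps between genes shorter than 50 kb held 1.73 regions per Mb (exact 95% Poisson interval 1.55 to 1.93), and gaps over 1 Mb held 1.28 (1.18 to 1.39). Unsequenced stretches and repeats, whose positions were not known here, count as available sequence. The intervals cover counting error only.

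**Figure D2:**
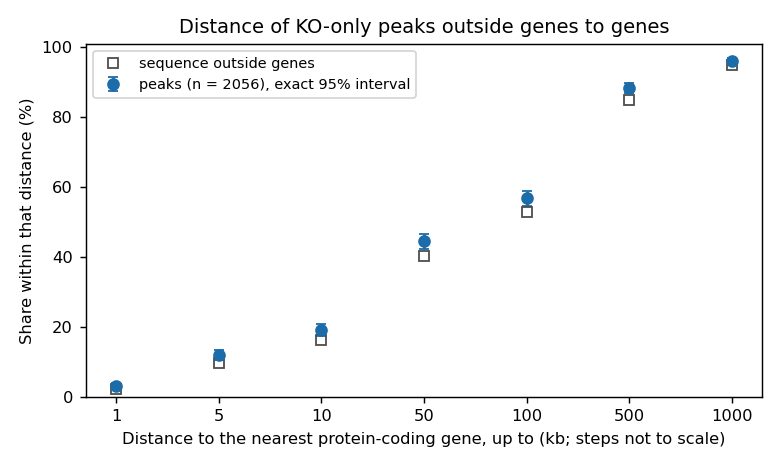
Share (y axis, percent) within a given distance of the nearest protein-coding gene (x axis, kb, steps not to scale) for 2056 regions (blue circles, exact 95% binomial intervals) and for the sequence outside genes (open squares). The circles sit above the squares at each distance, for example 12% against 9.65% within 5 kb.

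Neither side of the nearest gene held more regions than its share of the sequence beyond the interval. Strand was listed for the nearest gene of 1640 regions, of which 878 lay on the 5′ side (53.5%, exact 95% interval 51.1 to 56.0), and 53.3% of the sequence did. Within 5 kb 106 of 198 lay on the 5′ side (53.5%), against 51.8% of the sequence. Within 1 kb it was 28 of 45 (62.2%, 46.5 to 76.2), against 50.0%. Of the 15 strongest regions, 4 of the 13 with a listed strand lay on the 5′ side.

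Among the 65 regions within 1 kb of a gene, the 10 strongest were next to 10 different genes. Tyk2, a kinase of interferon receptors, came first with an enrichment of 23.3 from 49 reads at chr9:21103712-21103821. That peak lay 247 bp beyond the 3′ end of the gene, not at its start. Cab39, a partner of the LKB1 kinase, had 19.6 from 41 reads, 552 bp on its 5′ side, and Tex30 19.4, 323 bp from its 5′ boundary. Tm7sf3, Galm, a sugar epimerase gene, and Jsrp1 had 17.7, 16.8 and 16.8, with no strand listed. The bitter taste receptor gene Tas2r134 had 16.3 at 703 bp, Zcchc9 15.8 at 365 bp and Serpina9 14.4 at 943 bp. Meis1, a transcription factor of stem cells, had 16.3 from 34 reads, 945 bp beyond its 3′ end. The same Meis1 region lay upstream of a listed start of 8430419K02Rik, a long non-coding RNA gene.

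Few genes of the blood, stress and liver lists lay within 10 kb of a region, and few of all genes did. As background, 373 of 20661 protein-coding genes on these chromosomes were the nearest gene of a region within 10 kb (1.81%), and 1463 were nearest at any distance (7.08%). Of 38 HSC identity genes Meis1 alone was within 10 kb (2.63%), with a second region of 11 reads 8220 bp from its 3′ end. Slamf1, Etv6 and Runx1 were nearest to a region from 12.6, 14 and 258 kb. Of 36 interferon response genes Tyk2 was within 10 kb, and Jak1 was nearest from 47.5 kb. The genes beyond 10 kb are named after their values were seen, and counts this small do not set a list apart from the background shares.

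The other lists had 0 or 1 gene each within 10 kb. Hspa4, a heat shock protein gene, had a region of 12 reads 742 bp beyond its 3′ end, 1 of 27 heat shock and integrated stress genes within 10 kb. Bbc3, which encodes the cell death protein PUMA, had a region of 16 reads 5907 bp on its 5′ side, 1 of 23 p53 and apoptosis genes. None of 25 NF-kB and inflammation genes was within 10 kb, and Tnfaip3 was nearest from 28.2 kb with an enrichment of up to 15.4. Hbb-bt, an adult beta globin gene, had a region of 22 reads 1438 bp on its 5′ side, 1 of 15 erythroid genes. Of 23 hepatocyte, 19 macrophage and myeloid and 23 splicing genes, 0 were within 10 kb. Bclaf1 itself and its paralog Thrap3 had 0 regions within 100 kb, the nearest being 442002 and 338021 bp away.

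Most large gene families had about the share of regions that they had of the sequence. Olfactory receptor genes were nearest to 1.70% of the regions (exact 95% interval 1.19 to 2.36) and to 1.84% of the sequence outside genes. Vomeronasal receptors had 0.973% against 1.29%, zinc finger genes named Zfp 1.65% against 1.49% and developmental transcription factor families 1.56% against 1.77%. Protocadherins and cadherins had 3.06% against 2.80%, and synaptic adhesion genes 3.06% against 3.14%. Over all regions, predicted genes named Gm had more than their share, with 6.76% (5.71 to 7.93) against 5.01%. Of those 139 regions 21 lay between 14 and 18 Mb of chromosome 5. Among regions with no other KO peak within 10 kb the share was 5.77% (4.75 to 6.94), an interval that holds 5.01%.

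**Figure D3:**
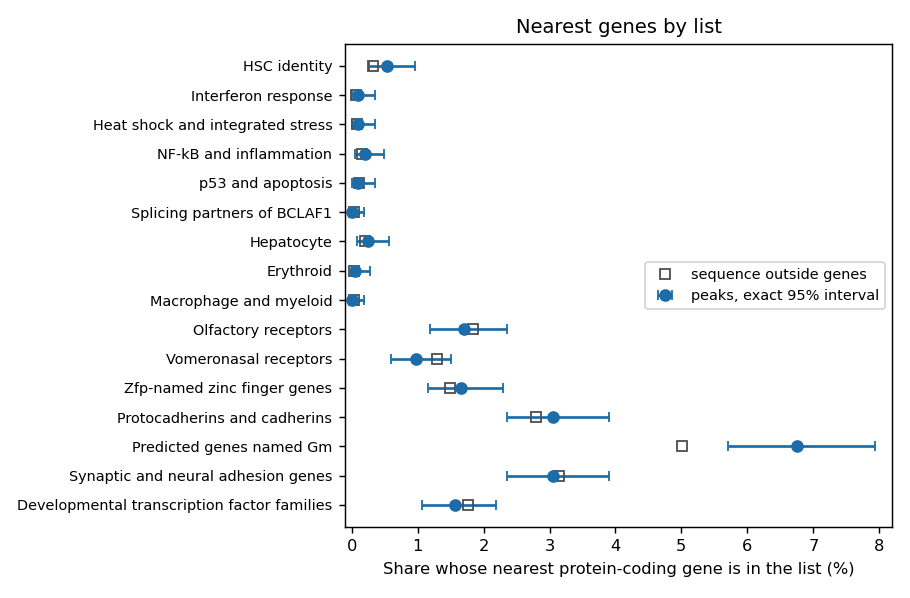
Share (x axis, percent) of 2056 regions whose nearest protein-coding gene belongs to each list (blue circles, exact 95% binomial intervals) and of the sequence outside genes nearest to that list (open squares). The square lies within the interval for each list except predicted genes named Gm, at 6.76% of regions and 5.01% of sequence.

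The regions farthest from genes lay in gene deserts, which follows from how they were picked. Pcdh9, a protocadherin gene of neurons, was the nearest gene of 14 regions, the most of any gene, with enrichments up to 24.7. The length of sequence nearest to Pcdh9 is not given here, so its count is not set against length. Gaps over 1 Mb held 1.28 regions per Mb, against 1.42 overall. The region farthest from any gene, chr14:90830079-90830146, lay 2183554 bp from Pcdh9 with 5.59 from 11 reads, and another lay 39395 bp away from it with 11.2. The other 3 of the 5 farthest were nearest to Tmeff2 (1934 kb), Cntnap5b (1929 kb) and Pcdh20 (1909 kb), with 6.99, 6.52 and 13.0.

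Non-coding annotation covered the regions about as often as the sequence. It overlapped 287 of them (13.8%, exact 95% interval 12.3 to 15.3) and 14.1% of the sequence outside genes. Of these, 230 lay in long non-coding RNA genes, 30 in pseudogenes and 14 in transcribed pseudogenes. The antigen receptor loci, whose segments are not annotated as protein-coding genes, held 11 regions, all 7 loci counted. That was 1.26 per Mb of their sequence outside protein-coding genes (exact 95% Poisson interval 0.631 to 2.26), against 1.42 overall. They are named here after their values were seen. Tcra held 5, 1 of them also within Tcrd, Igh 4 and Igk 2, with enrichments from 5.59 to 21.9. The strongest lay in Igh at chr12:114582154-114582248, from 47 reads.

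Of 919 microRNA hairpins, with no share of sequence to set beside them, 1 lay within 1 kb of a region. This was Mir344f, 657 bp from the peak at chr7:62046905-62047021, which had an enrichment of 11.2 from 23 reads and lay 301256 bp from Ndn, an imprinted gene. Its mature sequences are shown from RefSeq (GRCm38.p6, minus strand, 5′ to 3′), with the seed, bases 2 to 8, in capitals.
mmu-miR-344f-5p: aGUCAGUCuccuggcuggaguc
mmu-miR-344f-3p: cUCUAGCCaggaccugacuac

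Chromosome 8 held more regions than the others for its length. It had 2.01 per Mb outside genes (exact 95% Poisson interval 1.70 to 2.35, 151 regions), against 1.39 on the other 18 chromosomes together. The rest ranged from 1.18 on chromosomes 13 and 15 to 1.68 on chromosomes 5 and 14. KO-only peaks inside genes come from the same library and the same absence from the other lists, so they are not an independent check. They were also densest on chromosome 8, with 1.63 per Mb of genes (1.30 to 2.02) against 1.11 over all chromosomes. The HSC WT 1 list had 0.135 peaks per Mb there against 0.144 on all 19, HSC WT 2 0.166 against 0.181, fixed LSK 0.119 against 0.102 and native LSK 0.333 against 0.258. Chromosome 8 was singled out after its values were seen, and the difference was not tested.

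**Figure D4:**
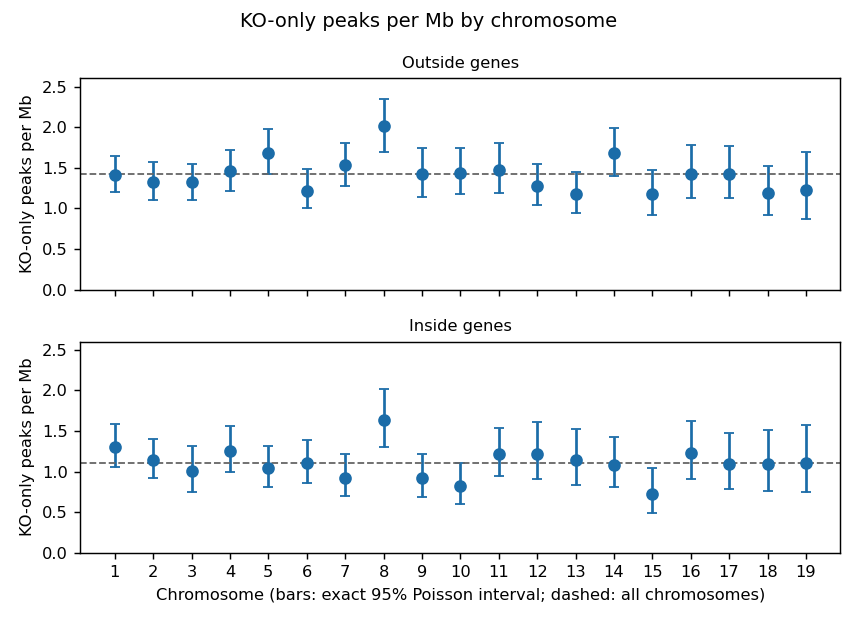
KO-only peaks per Mb (y axis) on chromosomes 1 to 19 (x axis), outside genes per Mb outside genes (upper) and inside genes per Mb of genes (lower), with exact 95% Poisson intervals and a dashed line for all 19 together. Chromosome 8 is highest in both panels, at 2.01 and 1.63.

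Most regions stood alone. Joined where neighbours lay within 10 kb, they formed 1960 groups, of which 1878 held 1 region, 65 held 2 and 17 held 3 or more. In all 205 regions lay within 10 kb of another (9.84%, exact 95% interval 8.60 to 11.2). Their median enrichment was 6.13 against 7.45 for the rest. Enrichment is over a local background whose source is not known, so it may not be independent of nearby peaks. The share was highest on chromosomes 5 (25%) and 17 (21.0%) and lowest on chromosome 3 (2.90%).

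The 5 largest groups lay on chromosomes 5, 10, 11 and 17, beside gene families, pseudogenes and the starts of chromosomes. The largest held 10 regions in 5684 bp, chr17:39843103-39848786, which overlaps Rn18s-rs5, annotated as a pseudogene of 18S ribosomal RNA, and the long non-coding RNA gene AY036118. Of the 10 regions 1 lay in Rn18s-rs5. Its nearest protein-coding gene, Esp38, lay 101734 bp away. Enrichments there were only 2.07 to 2.94, although each peak rested on 67 to 91 reads, over a local background of 27.5 to 31.8 reads. Within the same span were 3 further KO peaks, 1 peak of HSC WT 1, 1 of native LSK and 2 of fixed LSK cells. The second group held 7 regions near the start of chromosome 10, chr10:3110328-3117111, 2730 bp from 9230019H11Rik. There too the background was high, 12 to 17.0 reads, and HSC WT 1 had 2 peaks and native LSK 4 in the span.

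In the other 3 large groups no other list had a peak. Groups of 6 and 5 regions lay near Speer4c (chr5:15671239-15690041) and Speer4f1 (chr5:17467852-17473768), members of a tandem family of genes of spermatogenesis. Their enrichments were 3.30 to 6.43 and 4.75 to 6.78. The local background was raised there too, at 3.35 to 6.15 and 1.94 to 2.18 reads, against 1.15 for the genome. A group of 6 at chr11:3113172-3128445 overlapped the pseudogene Pisd-ps1, 3405 bp from Sfi1, with 3.93 to 8.60 over a local background of 1.91 to 8.17 reads. Between 14 and 18 Mb of chromosome 5 lay 40 of that chromosome's 144 regions, and the Mb from 15 on held 21, the most of any Mb.

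**Figure D5:**
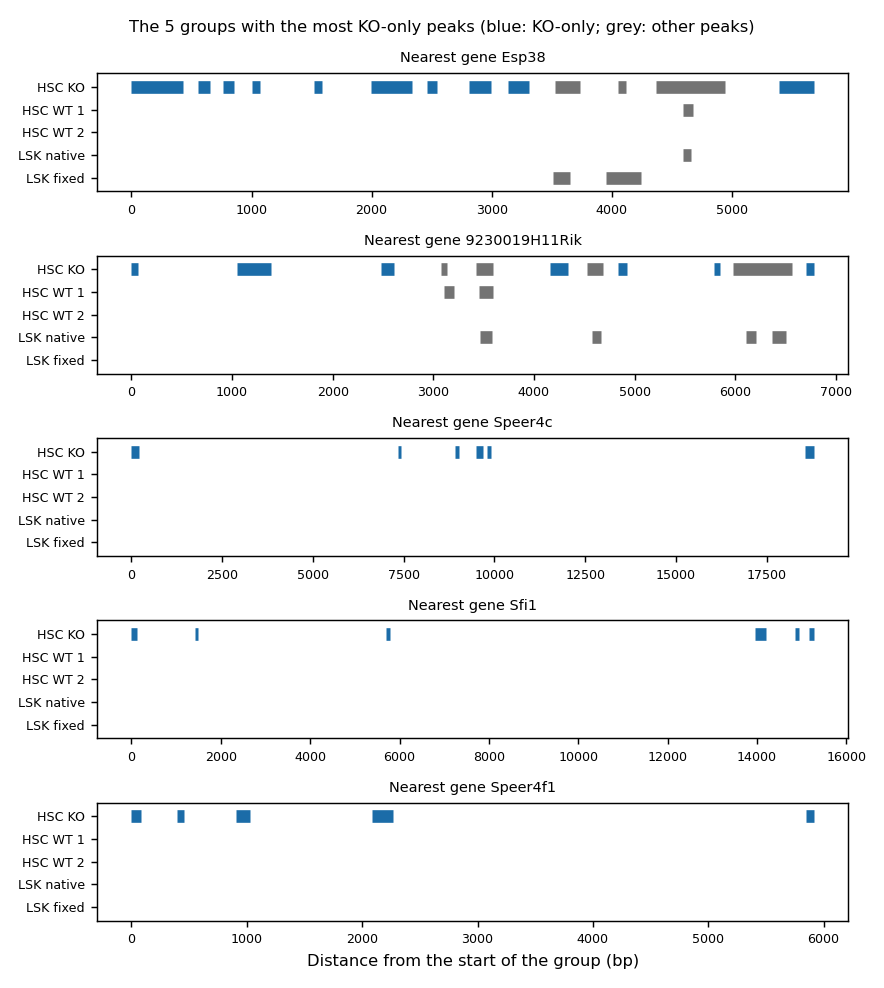
Peaks of each library (rows) in the 5 groups with the most regions, by distance from the start of the group (x axis, bp), named by the nearest gene. Blue bars are the KO-only regions and grey bars other peaks; the groups at Esp38 and 9230019H11Rik hold peaks of other libraries, and those at Speer4c, Sfi1 and Speer4f1 hold none.

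A raised local background set a small class apart. In 38 regions (1.82%), on 8 chromosomes, it was at least 5 times that of the genome. Of these, 37 lay within 10 kb of another KO peak and 27 within 10 kb of a peak of another list. How the local background was taken is not known, so it may not be independent of nearby peaks. By contrast, 1779 regions (85.4%) had the background of the genome. The first Mb of assembled sequence, from 3000000 to 4000000, held 45 regions on 14 chromosomes, with a median enrichment of 5.73, among them 8 on chromosome 10 and 6 on chromosome 11.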

How the data were processed

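Each library has 1 deposited table of peaks (narrowPeak). The submitters' processing notes give mm10 as the build. Aligner, peak caller, control and treatment of duplicate reads are not given in any source used here. The authors' fold enrichment (a ratio), −log10 p and −log10 q per peak were used as deposited, within a list. The deposited score equals 10 times the −log10 q, rounded down, and was not used. Positions were converted to count from 1. Reads were recovered as the whole number that gives both the enrichment, with a pseudocount of 1, and the Poisson p-value (tolerance 0.0001). Up to a −log10 p of 300 this held for 100% of peaks in each list.

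Gene spans came from NCBI RefSeq GRCm38.p6 (21896 protein-coding genes, 20661 on chromosomes 1 to 19). Strand came from its start windows, for 17491 of them. Named are the nearest genes of the 15 strongest regions, the 10 strongest within 1 kb of a gene, the 5 largest groups, the 5 farthest, and genes of 9 lists within 10 kb. Regions and lists were chosen with earlier results of these data known. Shares have exact binomial and densities exact Poisson intervals, for counting error only. Tests were Fisher's exact test, adjusted by Benjamini and Hochberg over 3 comparisons, in SciPy 1.17.1, tested on simulated data. Alternatives covered the overlap, gene spans, q-value, chromosomes and libraries.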

Additional observations from a re-analysis of the deposited data

How the results depend on the processing

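Of 51 other settings, 41 left the count, share or test where it was (a count within 1.5 times, a share within its interval), and none of the 3 comparisons with peaks inside genes passed in any of them. Held to its strongest 627 peaks, the KO list left 148 regions instead of 2083. With chromosomes X and Y added, the share outside genes was 70.1%, that within 5 kb of a gene 10.2% and that within 10 kb of another region 11.4%. Counting all annotated genes, 56.5% lay outside. With a −log10 q of at least 5, 8.59% lay within 10 kb of another. Other distances gave 3.12% within 1 kb and 19.3% within 10 kb of a gene, and 4.61% within 1 kb and 21.7% within 50 kb of another region. The cause of these shifts was not tested, beyond the distance or annotation that each setting changes. Leaving out HSC WT 1 or 2 gave 2104 and 2095 regions. Chromosome 8 was checked with alternatives chosen after seeing the data: 1.65 regions per Mb against 1.17 on the others with a −log10 q of at least 5, and 1.77 against 1.24 without regions within 10 kb of another KO peak. No paired analysis was possible because there is 1 KO library and its label carries no replicate number. The other 4 libraries had lower backgrounds than KO, and 451 of the regions scaled to at least the fewest reads of an HSC WT 1 peak; what part depth has in the absences was not otherwise tested.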
